A study of Mus musculus with 4 samples.

Results

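The 7 predicted genes *Gm10717*, *Gm10718*, *Gm10719*, *Gm10721*, *Gm10800*, *Gm10801* and *Gm21738*, of 55401 genes in the deposited tables, were chosen by their measured levels, which moved in step between libraries. Those levels are therefore given below as a description. RNA came from CD45+ cells, the leukocytes, sorted from the dura mater of male C57BL/6J mice. All mice had received a single injection of an AAV9 vector into the cisterna magna at 4 wk of age. AAV-mVEGF-C carried full-length mouse VEGF-C, whereas AAV-CTRL carried a soluble piece of VEGFR-3 fused to an immunoglobulin tail, described as unable to bind VEGF-C. Each group had 2 libraries, numbered by experiment, and each library is taken as a pool of cells from several mice. The paper's methods give 10 to 12 mice for each AAV-treated group, without saying whether this is per library. The p-values measure the spread between these pools. The libraries were stranded total RNA libraries for very small inputs, with 32520709 to 46409700 reads assigned to genes.

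The transcripts of these genes are of the kind known as major satellite, or gamma satellite, of the mouse. This is a tandem repeat that fills the pericentromeric heterochromatin of most mouse chromosomes. It is normally kept compact by methylation of histone H3 on lysine 9, which the SUV39H enzymes write and the HP1 proteins bind, and by DNA methylation. Satellite RNA is mostly nuclear and lacks the usual processing of a coding message. The predicted genes are annotated as protein coding, but no function is known for their products. No repeat annotation was used here, and the link to the satellite family is background.

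The genes shared long stretches of sequence. In the GENCODE M21 transcripts (build GRCm38), a stretch of 30 bases was present in all 17 transcripts of the 7 genes. It is given in capitals within 200 bases of the first annotated transcript, 5′ to 3′, of the most abundant gene, of its neighbor on chromosome 2, of the gene on chromosome 14 and of one gene on chromosome 9. The windows begin at transcript base 67, except that of *Gm10801*, which begins at base 1, and they are spliced sequence.
Gm10800: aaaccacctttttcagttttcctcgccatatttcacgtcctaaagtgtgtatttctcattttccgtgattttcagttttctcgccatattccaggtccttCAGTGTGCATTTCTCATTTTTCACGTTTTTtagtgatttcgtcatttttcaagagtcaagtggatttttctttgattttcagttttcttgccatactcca
Gm10801: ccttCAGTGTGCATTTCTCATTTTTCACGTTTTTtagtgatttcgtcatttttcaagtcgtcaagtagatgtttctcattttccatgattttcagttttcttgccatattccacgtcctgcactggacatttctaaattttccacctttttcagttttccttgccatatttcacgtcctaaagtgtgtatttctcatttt
Gm21738: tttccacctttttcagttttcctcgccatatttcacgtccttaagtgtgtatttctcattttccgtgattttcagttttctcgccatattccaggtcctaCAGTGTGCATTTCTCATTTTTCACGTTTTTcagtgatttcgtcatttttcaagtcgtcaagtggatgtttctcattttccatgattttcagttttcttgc
Gm10718: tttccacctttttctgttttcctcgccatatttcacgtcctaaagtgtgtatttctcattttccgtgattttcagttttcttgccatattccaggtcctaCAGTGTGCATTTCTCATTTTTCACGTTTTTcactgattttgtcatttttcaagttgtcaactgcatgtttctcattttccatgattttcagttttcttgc

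The capitals mark CAGTGTGCATTTCTCATTTTTCACGTTTTT, searched on both strands of every annotated transcript. It was held by 13 of 55450 annotated genes, or 0.0234%. Of these, 12 held it on the transcript strand and 1 on the opposite strand. The 7 genes were 7 of the 12. The first transcripts were identical over 91.3 to 98.8% of the shorter sequence in pairwise alignments, with a median of 94.6%, the closest pair being *Gm10718* and *Gm10721* and the most distant *Gm10800* and *Gm10801*. Thymine made up 45.8 to 47.5% of bases, against a median of 23.8% over 58797 protein-coding transcripts.

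The genes were built of a repeat unit. Words of 12 bases that recurred within a first transcript were most often 234 bases apart, in 776 of 2905 word pairs. That distance was the most frequent in 5 of the genes, while it was 225 bases in *Gm10800* and 231 bases in *Gm10801*. The capitalized stretch occurred once in the transcripts of *Gm10800*, *Gm10801* and *Gm21738*, and 2 or 3 times in every transcript of the 4 genes on chromosome 9.

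**Figure D1:**
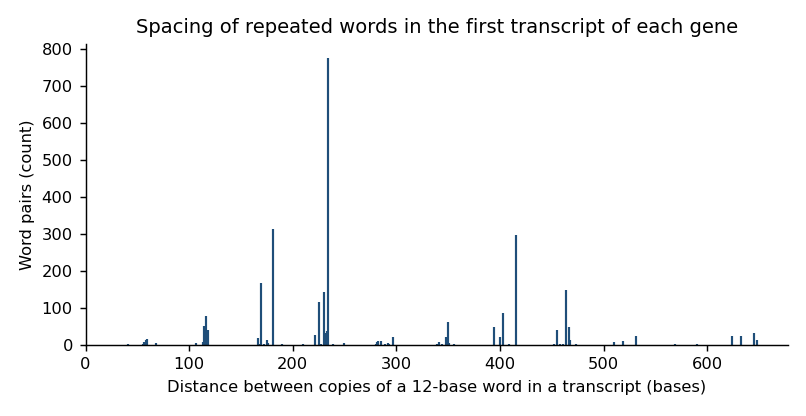
Number of pairs of identical 12-base words (vertical axis, count) by the distance between the copies (horizontal axis, bases), summed over the first transcript of each of the 7 genes. The tallest line, at 234 bases, holds 776 of the 2905 pairs.

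The gene models were unusual in structure and position. *Gm10721* (chr9:3013140-3014344), *Gm10719* (chr9:3017408-3021593), *Gm10718* (chr9:3023547-3025218) and *Gm10717* (chr9:3025417-3033289) lie on the plus strand at the annotated start of chromosome 9, with only 3 to 7 annotated genes before them. *Gm10801* (chr2:98662237-98664083, plus strand) and *Gm10800* (chr2:98666547-98667301, minus strand) are adjacent on chromosome 2. *Gm21738* is at chr14:19415857-19418930 on the minus strand. Their coding length was 504 to 684 bases, and 0 untranslated regions were annotated. Of the 59 gaps between neighboring exons of their transcripts, 21 (35.6%) were shorter than 20 bases, a size too short for a normal intron, whereas 170 of 649976 gaps (0.0262%) were that short over all protein-coding genes.

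Only 6 further annotated genes shared a stretch of 31 bases with any of the 7 on either strand. They are *Gm10715*, *Gm10720*, *Gm10722*, *Gm11168* and *Gm17535*, on the plus strand of the same end of chromosome 9, and the lincRNA *Gm26870*, which spans them on the minus strand. *Gm26870* was not analysed here. Between 36.2% (*Gm10801*) and 89.3% (*Gm10721*) of the 31-base stretches of a gene occurred in another gene. At 100 bases, the length of a sequenced read, this fell to 0% for *Gm10800* and *Gm10801* and reached 47.4% for *Gm10721*. These are exact matches to annotated, spliced transcripts on the same strand, and copies outside the annotation were not searched. The level of a single gene, above all on chromosome 9, is therefore uncertain, and whether counting used the strand is not given in the sources used here, so that reads of the chromosome 9 genes and of *Gm26870* cannot be told apart. All 28 values of the 7 genes had decimals, as programs give that divide reads between genes, against 17.7% of all values of at least 10 reads.

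*Gm10800* was by far the most abundant of the genes. Estimated reads numbered 1719 in AAV-CTRL 1, 19347 in AAV-CTRL 2, and 100342 and 8580 in libraries 1 and 2 of AAV-mVEGF-C. As counts per 1000000 assigned reads (CPM), these were 37.0, 580, 2637 and 264. AAV-CTRL 1 was lowest and AAV-mVEGF-C 1 highest, and AAV-mVEGF-C 2 lay between both AAV-CTRL libraries, so the groups overlapped.

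The next most abundant were *Gm21738* and *Gm10801*. *Gm21738* had 2.08 CPM in AAV-CTRL 1, 57.0 in AAV-CTRL 2, and 272 and 27.5 in libraries 1 and 2 of AAV-mVEGF-C. *Gm10801*, the neighbor of *Gm10800*, had 2.31, 52.8, 224 and 25.4 CPM in the same order. Both again placed AAV-mVEGF-C 2 between the AAV-CTRL libraries.

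The 4 genes on chromosome 9 were lower. *Gm10718* had 0.809 CPM in AAV-CTRL 1, 22.7 in AAV-CTRL 2, and 158 and 12.5 in libraries 1 and 2 of AAV-mVEGF-C. *Gm10719* had 1.11, 15.7, 80.7 and 7.50 CPM in the same order. This pair showed the order of libraries seen for *Gm10800*. *Gm10717* had 1.27, 12.4, 56.1 and 6.46 CPM. *Gm10721*, the lowest of the 7, had 0.641, 9.49, 42.3 and 4.85 CPM. The groups overlapped in these genes as well.

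**Figure D2:**
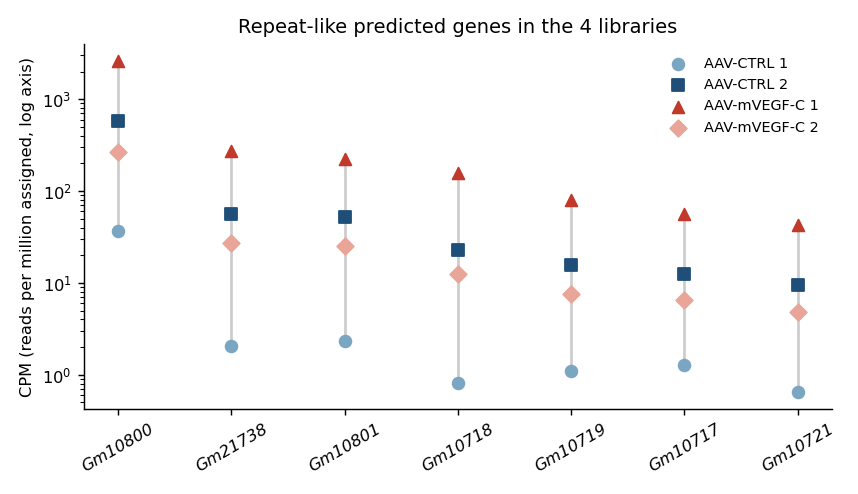
Level of each gene in the 4 libraries (CPM, log axis), with 1 point per library and a line from the lowest to the highest. In all 7 genes AAV-CTRL 1 is lowest, followed by AAV-mVEGF-C 2, AAV-CTRL 2 and AAV-mVEGF-C 1.

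The order of the libraries was the same in 7 of 7 genes, as the choice of the genes favors. It was seen in 10.3% of the 19806 genes that passed the filter on low counts. The highest library exceeded the lowest 44.0-fold in *Gm10717* and 196-fold in *Gm10718*, with the other genes in between. The range over the libraries on the log2(CPM + 1) scale was 4.65 to 6.47, against a median of 0.54 over the genes tested. Only 7 tested genes had a larger range than *Gm21738*, and 31 a larger range than *Gm10717*, the latter count including the other 6 of the 7.

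Summed over the 7 genes, the reads were 0.00453% of assigned reads in AAV-CTRL 1 (95% Wilson interval 0.00434 to 0.00472%) and 0.0750% in AAV-CTRL 2 (0.0741 to 0.0760%). They were 0.347% in AAV-mVEGF-C 1 (0.345 to 0.349%) and 0.0348% in AAV-mVEGF-C 2 (0.0342 to 0.0355%). These intervals reflect counting alone, because PCR copies of one molecule are not separate observations. The spread between pools is not part of them. AAV-CTRL 1, where the sum was lowest, had the most assigned reads of the 4.

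The libraries of a group differed more than the groups did. The summed level was 16.6-fold higher in AAV-CTRL 2 than in AAV-CTRL 1, and 9.97-fold higher in AAV-mVEGF-C 1 than in AAV-mVEGF-C 2. The mean was 398 ± 499 CPM (SD, n = 2) for AAV-CTRL. For AAV-mVEGF-C it was 1909 ± 2208 CPM (SD, n = 2), a ratio of 4.80. By experiment number the direction turned, since AAV-mVEGF-C 1 was 76.7-fold above AAV-CTRL 1 while AAV-mVEGF-C 2 was at 0.464 of AAV-CTRL 2. In single genes the latter ratio was 0.455 (*Gm10800*) to 0.549 (*Gm10718*). With 2 pools against 2, the smallest two-sided p of an exact permutation test is 0.333, and no such test was run.

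The difference between AAV-mVEGF-C and AAV-CTRL did not pass the test in any of the 7 genes. All passed the filter on low counts, and their log2 fold changes were 2.19 (*Gm10801*, SE 1.41) to 2.88 (*Gm10718*, SE 1.54). *Gm10800* had a log2 fold change of 2.24 with an SE of 1.37. The quasi-likelihood test of edgeR gave an adjusted p (Benjamini-Hochberg) of 0.999 for each, and 0 of 7 were called, against 0% of the 19806 genes tested. At an unadjusted p under 0.05 it was 0 of 7, against 2.64% of the genes tested, or 523 genes, and 1.46% in the higher direction. DESeq2, the tool named in the study's methods, also called 0 of 7 at an adjusted p under the same threshold, against 0.397% of the genes it tested. The libraries of the groups were separate in 0 of 7 genes, against 32.1% of the genes tested in either direction and 15.4% with AAV-mVEGF-C higher. The median log2 fold change of the 7 was 2.24, beside 0.0034 over all genes tested.

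This result rested on single libraries and on the filter. Without AAV-CTRL 2 the median log2 fold change was 5.24 and 7 of 7 genes were called, with edgeR's adjusted p of 0.0024 to 0.0072, against 9.19% of genes tested. Without AAV-mVEGF-C 1 the median was −0.0034 and 0 of 7 were called, against 0.0097% of genes. Without AAV-CTRL 1 it was 1.32 with 0 of 7 called, against 1.85%, and without AAV-mVEGF-C 2 it was 3.11 with 0 of 7 called, against 0.284%. With no filter on low counts, the fold changes hardly moved (median 2.19), yet edgeR called 7 of 7 genes, with adjusted p of 4.2e-32 to 7.9e-10, against 0.659% of 40674 genes, although the values per library and their overlap were the same. With experiment numbers entered as a block, 0 of 7 were called, against 0.0555% of genes. With the numbers crossed between the groups, a pairing chosen after seeing the data, 7 of 7 were called, against 0.273%. Crossing joins AAV-CTRL 1 with AAV-mVEGF-C 2, the lower library of each group in these genes, and the higher libraries with each other. It thus removes the spread by which the genes were chosen, and its calls are no independent test of the group difference.

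**Figure D3:**
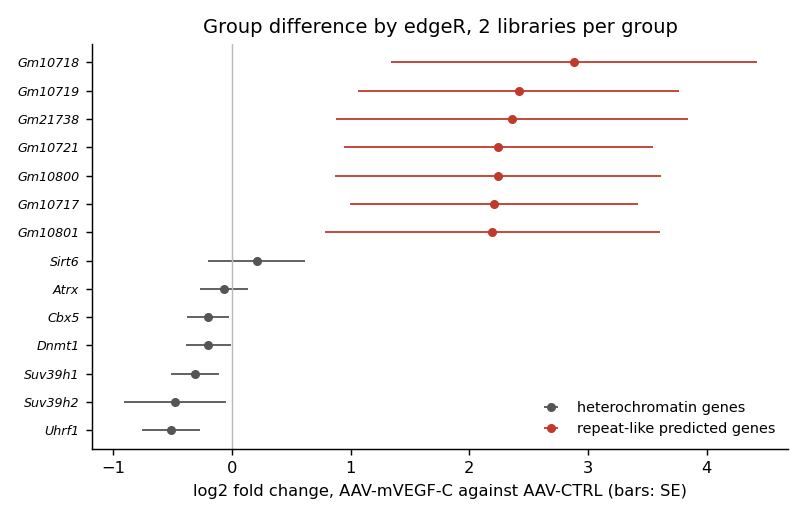
Log2 fold change of AAV-mVEGF-C against AAV-CTRL (horizontal axis, bars are SE) for the 7 genes and for the heterochromatin genes named in the text, from edgeR with 2 libraries per group. The 7 genes lie at 2.19 to 2.88 with wide bars, and the heterochromatin genes shown lie at −0.51 to 0.21.

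The division of reads among the 7 genes was steadier than their level. *Gm10800* held 81.8% of their reads in AAV-CTRL 1, 77.3% in AAV-CTRL 2, and 76.0% and 75.8% in libraries 1 and 2 of AAV-mVEGF-C. *Gm10801* held 5.11 to 7.30%, *Gm10719* 2.09 to 2.44% and *Gm10721* 1.22 to 1.42%. AAV-CTRL 1 stood somewhat apart, as *Gm21738* held 4.59% of the reads there against 7.59 to 7.91% in the other libraries. *Gm10718* held 1.79% in AAV-CTRL 1 against 3.03 to 4.56% in the others, and *Gm10717* held 2.82% against 1.62 to 1.86%.

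**Figure D4:**
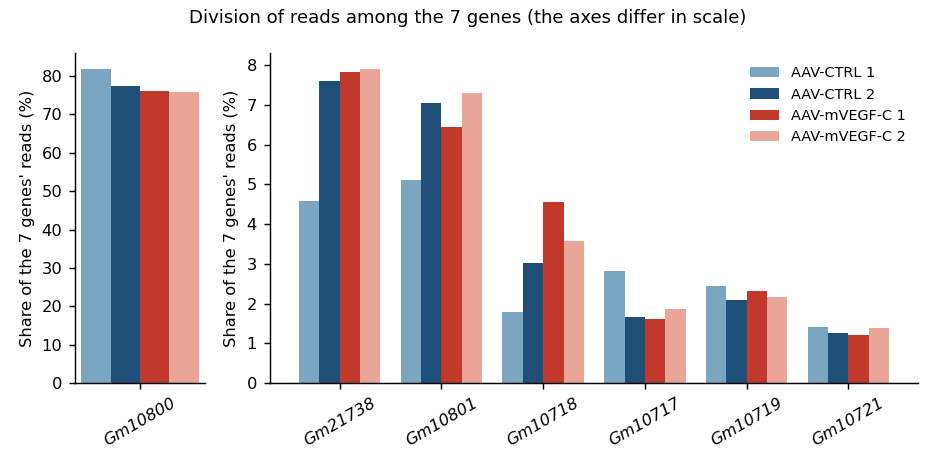
Share of the 7 genes' reads (vertical axes, %, of different scale) held by each gene in the 4 libraries. *Gm10800* holds 75.8 to 81.8% in every library, and *Gm21738*, *Gm10801* and *Gm10718* hold their smallest shares in AAV-CTRL 1.

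Per length, *Gm10800* was again the highest and *Gm10721* the lowest gene in each library. In CPM, *Gm21738* was above *Gm10801* in all libraries but AAV-CTRL 1, and per length it was below *Gm10801* in each. In TPM, values which the authors scaled for gene length to a sum of 1000000 in each library, *Gm10800* was at 73.4 in AAV-CTRL 1, 1162 in AAV-CTRL 2, and 4271 and 487 in libraries 1 and 2 of AAV-mVEGF-C. *Gm10801* was the next in all 4 libraries, at 6.26, 144, 521 and 64.9 TPM, and *Gm21738* followed at 3.56, 101, 410 and 45.5 TPM. *Gm10721* was the lowest in all 4. The 3 genes between them changed places, with *Gm10717* above *Gm10719* and *Gm10718* in AAV-CTRL 1 and below both in the other libraries. *Gm10800* held 74.6 to 81.4% of the summed TPM of the 7 genes over the libraries and *Gm10801* 6.94 to 9.95%, so that their shares did not overlap. The shares of *Gm10801* and *Gm21738* (3.95 to 7.16%) overlapped between libraries, although *Gm10801* was the higher within each, and neighbors further down did not all keep their order.

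The 5 further genes with shared sequence, which were not used in the choice, were much lower but showed the same order of libraries in 5 of 5 genes. *Gm11168* had 2, 105, 802 and 65.0 estimated reads in AAV-CTRL 1, AAV-CTRL 2, AAV-mVEGF-C 1 and AAV-mVEGF-C 2. *Gm10722* had 7, 93.1, 509 and 39.8 reads in the same order. *Gm17535* had 0, 57.5, 462 and 38.7 reads. *Gm10715* ranged from 1 to 499 reads and *Gm10720* from 1 to 156, each lowest in AAV-CTRL 1 and highest in AAV-mVEGF-C 1. Summed over the 5 genes, the highest library exceeded the lowest 269-fold in CPM, against 76.7-fold for the 7, the lowest sum being 11 reads. These genes share bases with the 7, so the same reads may have been divided among both sets, and they are no separate measurement.

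**Figure D5:**
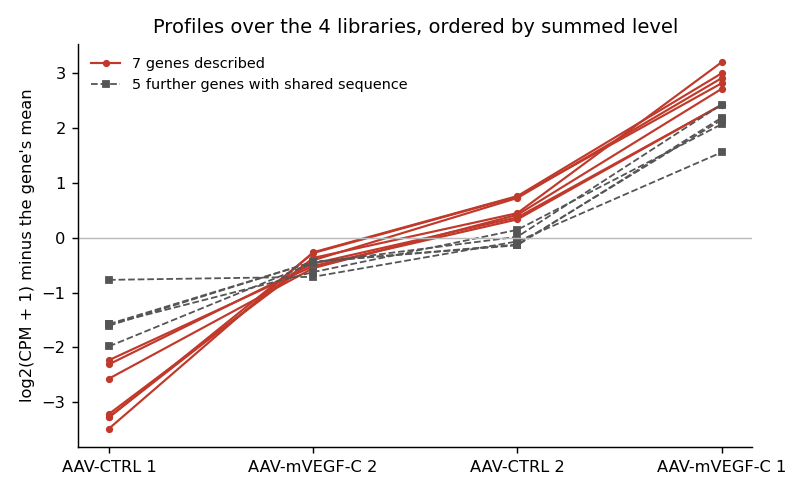
Level of each gene relative to its own mean over the 4 libraries (vertical axis, log2(CPM + 1) minus the mean), with libraries ordered by the summed level of the 7 genes. The 7 genes (solid lines) climb from AAV-CTRL 1 to AAV-mVEGF-C 1, and the 5 further genes (dashed lines) climb less steeply on this scale, where the added 1 flattens genes of low CPM.

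Other genes within 100 kb of the 7 had few reads. *Gm13806* and *Mir101c* had 0 reads in each library, and *Gm36704*, *Gm48105*, *Gm5630*, *Gm7352* and *Gm9637* had at most 8 reads in any library. Among 16372 genes with at least 10 reads in every library, those whose profile lay nearest to the mean profile of the 7 were *Igkv4-61*, *Ighv1-18*, *Gm45234*, *n-R5s115* and *Igkv12-41*. The largest distance of *Igkv4-61* from that profile in any library was 0.61 on the log2(CPM + 1) scale, which is within the distance of *Gm10717*, 0.67. *Igkv4-61*, an immunoglobulin κ variable segment, had 0.259, 6.38, 66.7 and 4.65 CPM in AAV-CTRL 1, AAV-CTRL 2, AAV-mVEGF-C 1 and AAV-mVEGF-C 2. The other 4 genes lay at up to 1.05.

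Genes that pack satellite repeats were examined beside the 7. All 25 heterochromatin genes on the list were tested, 7 had a higher and 18 a lower fitted level in AAV-mVEGF-C, and edgeR called 0 of them in either direction, as it did 0% of all genes tested. At an unadjusted p under 0.05 it was 0 of 25, against 2.64% of all genes. Without AAV-CTRL 2, edgeR called *Uhrf1* alone, at a log2 fold change of −0.80 and an adjusted p of 0.0086, which is 1 of 25 genes beside 9.19% of all genes tested in that fit. Over all 4 libraries the median log2 fold change of the 25 was −0.17. The extremes were *Uhrf1* at −0.51 (SE 0.24) and *Suv39h2* at −0.48 (SE 0.43) on one side, and *Sirt6* at 0.21 (SE 0.41) on the other. UHRF1 maintains DNA methylation, SUV39H2 methylates histone H3, and SIRT6 is a deacetylase of histones.

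Levels of writers and readers of these marks varied far less between libraries than those of the 7 genes. *Suv39h1*, a writer of histone H3 lysine 9 methylation, had 31.1 CPM in AAV-CTRL 1, 25.6 in AAV-CTRL 2, and 24.3 and 21.7 in libraries 1 and 2 of AAV-mVEGF-C. *Cbx5*, which encodes HP1α, had 95.6, 79.8, 79.7 and 74.4 CPM in the same order. In *Cbx5*, AAV-CTRL 2 and AAV-mVEGF-C 1 were at nearly the same level, and neither gene passed the test. *Dnmt1*, the maintenance DNA methyltransferase, had 255, 203, 204 and 198 CPM, and *Atrx*, a chromatin remodeler, had 317, 290, 343 and 242 CPM. The groups overlapped in *Dnmt1* and *Atrx*, and in *Suv39h1* and *Cbx5* both AAV-mVEGF-C libraries were below both AAV-CTRL libraries. In CPM the groups were separate in 9 of the 25 genes, all with AAV-mVEGF-C lower, against 32.1% of all genes tested in either direction and 16.7% with AAV-mVEGF-C lower. With TMM factors they were separate in 8 genes with AAV-mVEGF-C lower, *Cbx5* no longer among them, and in 1 with AAV-mVEGF-C higher. The shares of all genes tested were then 31.9% in either direction and 15.2% with AAV-mVEGF-C lower.

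Some library features had the same order of libraries as the 7 genes. The number of genes with any reads was 20993 in AAV-CTRL 1, 29230 in AAV-mVEGF-C 2, 32496 in AAV-CTRL 2 and 37535 in AAV-mVEGF-C 1, in the same order as the summed level of the 7. Olfactory and vomeronasal receptor genes, which leukocytes are not known for, took 0.00485, 0.00869, 0.0157 and 0.0318% of reads in that order, a 6.55-fold range. LincRNA genes took 1.07, 1.14, 1.37 and 1.57% in that order. *Neat1*, a nuclear RNA, had 428, 465, 676 and 761 CPM in that order. The part of these features in the result was not tested.

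Other features did not follow the order. The rRNA genes of the table took 0.000659% of reads in AAV-CTRL 1 and 0.0165% in AAV-mVEGF-C 1, the lowest and the highest library, but the middle libraries changed places, with 0.00409% in AAV-CTRL 2 and 0.00469% in AAV-mVEGF-C 2. The nuclear RNA *Malat1* was highest in AAV-mVEGF-C 1, at 9784 CPM, but lowest in AAV-mVEGF-C 2, at 6649 CPM, against 6808 in AAV-CTRL 1 and 8205 in AAV-CTRL 2. *Kcnq1ot1* was likewise lowest in AAV-mVEGF-C 2, at 114 CPM against 118 in AAV-CTRL 1. Mitochondrial genes took 9.61% of reads in AAV-CTRL 1, 8.63% in AAV-CTRL 2, and 6.49% and 7.30% in libraries 1 and 2 of AAV-mVEGF-C. Processed pseudogenes took 1.48 to 1.56%. Protein-coding genes took 74.6 to 76.8%. *Ptprc*, which encodes CD45, had 976 to 1116 CPM, and the 5 leukocyte markers summed to 2914 to 3122 CPM. Of the 11 marker lists examined, 0 had a summed level in the order of the 7 genes. The B cell markers were highest in AAV-CTRL 2, at 459 CPM against 180 to 193 in the others, and the fibroblast markers ranged from 313 CPM in AAV-mVEGF-C 1 to 931 CPM in AAV-CTRL 2. Neutrophil markers summed to 4017 to 8002 CPM, macrophage markers to 815 to 1404 and T cell markers to 136 to 187. Erythroid markers summed to 26.2 to 146 CPM, osteoblast markers to 49.0 to 99.6 and neural markers to 99.0 to 122. Most of the osteoblast sum was *Runx2* (46.8 to 94.8 CPM), and most of the neural sum was *Mbp* (88.6 to 115 CPM). Endothelial markers summed to 53.2 to 75.8 CPM and lymphatic endothelial markers to 5.93 to 15.3. The defining markers *Ibsp*, *Syt1* and *Gfap* were at 0 in AAV-CTRL 1, the library lowest in the 7 genes. The part of these cell types in the result was not tested. In bulk samples, fewer cells of a type and less RNA per cell cannot be told apart.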

How the data were processed

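Stranded total RNA libraries from very small inputs were sequenced in paired mode. The authors deposited estimated counts per gene, which need not be whole, and TPM values, which sum to 1000000 in each library. The submitters' processing notes name FastQC, Trimmomatic, DRAGEN and Picard and the build mm10, but the counting settings are not given in the sources used here. CPM was computed from the deposited estimated counts and the total assigned to genes. For testing, counts were rounded, filtered with filterByExpr (19806 of 55401 genes), scaled by TMM and fitted with edgeR 4.0.16 in R 4.3.3 (glmQLFit, glmQLFTest), with all 4 libraries and no covariate, and genes were called at an adjusted p (Benjamini-Hochberg) under 0.05. The SE is the size of the log2 fold change divided by the square root of F. DESeq2 1.42.0 and limma 3.58.1 on log2 TPM were alternatives, and all were tested on simulated data. The simulation gave every gene the same dispersion and left out the unfiltered and blocked fits, so it does not bear on their calls.

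The 7 genes, the heterochromatin and marker lists and the alternatives were chosen with earlier results of these data known. Genes were named by rule. The rule took the 7 genes, their neighbors within 100 kb and sequence relatives, the 5 genes of most similar profile, 4 heterochromatin genes with the 2 highest and 2 lowest of the list, 4 reference genes and the cell type markers. One gene that the rule names is not reported here. Sequences, positions and gene types came from GENCODE M21, in which 54349 of the 55401 identifiers were found.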

Additional observations from a re-analysis of the deposited data

How the results depend on the processing

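The number of genes called by edgeR over all genes was 0, against 77 by DESeq2, 268 with no filter on low counts, 11 with a replicate block by experiment number, and 2 to 2058 when 1 library was left out. The replicate block called 0 of the 7 genes, with a median log2 fold change of 2.50. Deviations of same-numbered libraries from their group means correlated at −0.13 across genes, and the column names number the pools differently from the sample titles, so the pairing is unsettled. A crossed pairing, chosen after seeing the data, called 54 genes, among them 7 of the 7. For these 7 it removes the spread by which they were chosen, so their calls are no independent test. With no filter, the log2 fold changes of the called genes were 2.16 (*Gm10717*), 2.82 (*Gm10718*), 2.36 (*Gm10719*), 2.19 (*Gm10721* and *Gm10800*), 2.14 (*Gm10801*) and 2.30 (*Gm21738*), and 7 of 7 were called. The cause was not tested.

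When 1 library was left out, the median log2 fold change of the 7 genes was −0.0034 to 5.24, with 0 to 7 genes called, and the log2 ratio of the summed level was −0.19 to 5.40. By gene, the range was 0.0047 to 4.54 (*Gm10717*), 0.18 to 6.61 (*Gm10718*), −0.064 to 5.24 (*Gm10719*), 0.037 to 5.10 (*Gm10721*), −0.13 to 5.21 (*Gm10800*), −0.021 to 5.67 (*Gm10801*) and −0.0034 to 6.08 (*Gm21738*). Without AAV-mVEGF-C 1 the direction turned for *Gm10719*, *Gm10800*, *Gm10801* and *Gm21738*, and without AAV-CTRL 2 all 7 were called. A group left with 1 library is assumed to vary like the other. The median of the heterochromatin genes was −0.25 with TPM and a pseudocount of 0.1, where the median of all genes was −0.11. In DESeq2 the median of all genes was 0.25 and with no filter 0.22. The other 129 values kept their direction and, where tested, their side of the threshold. A design of 2 pools per group and shared sequence limit every value of a single gene.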
